A study of Mus musculus with 42 samples.

Results

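The genes described here are 10 of the 21674 genes in the deposited count table of mouse carotid intima and cultured aortic endothelial cells. They are the cold-inducible RNA-binding protein genes Cirbp and Rbm3 and the heat shock genes Hspa1a, Hspa1b, Hsph1, Dnajb1, Hspd1, Hspe1, Hsp90aa1 and Hspa8. They were chosen by name, with the levels and fold changes of earlier results of these data known, and which of those values guided the choice is not recorded. Counts of these genes past a threshold are therefore descriptions that support nothing by themselves.

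RNA was flushed from the intima, the inner lining of the artery that is mostly endothelium, and each carotid library held RNA pooled from several arteries. In the untreated 48 hr groups, male C57BL/6J mice of 6 to 7 weeks had branches of the left carotid tied off, which lowers flow there; the right carotid of ligated mice is called high flow, and sham mice had the dissection without the ties (3 pools in each group). Mice of the same strain and age received the platelet-depleting antibody anti-GPIba, the granulocyte-depleting antibody anti-Gr1, control IgG, clodronate liposomes to deplete macrophages, or control PBS liposomes, and the low-flow intima was taken at 48 hr (2 libraries each). High-flow intima was added for IgG and for PBS liposomes (2 libraries each), and there was 1 further low-flow library each for PBS and clodronate liposomes, read at 100 bp. At 7 d the mice were Rbfox2 EC-KO, which carried Cdh5(PAC)-CreERT2, Rosa26-mTmG and both floxed Rbfox2 alleles, or littermate controls, which carried the floxed alleles and the reporter without Cre. These mice were 2 to 7 months old and of both sexes, with 3 low-flow and 2 high-flow libraries per genotype. The Cdh5 promoter drives Cre in endothelial cells, and Rbfox2 in other cells of the intima was not measured. The cultured cells, with 1 library each, were a TetOn-SV40 aortic endothelial line left untreated or given 10% plasma, platelets with macrophages, or all of these, and primary aortic endothelial cells from control, EC-KO and eGFP-marked mice.

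Cells make heat shock proteins to keep other proteins folded. HSP70 proteins bind unfolded stretches of a client, HSP40 proteins deliver the client and stimulate the HSP70 ATPase, HSP110 proteins exchange the nucleotide, HSP90 finishes the folding of kinases and receptors, and the HSP60 and HSP10 rings fold proteins inside mitochondria. The transcription factor HSF1 drives these genes through heat shock elements, inverted GAA repeats in their promoters. Cirbp and Rbm3 run the other way with temperature: both encode small RNA-binding proteins that are made in mild cold and fall in heat.

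The promoter sequences below show where these genes carry the 2 motifs that bear on these responses. RefSeq promoter windows of 300 bases, from 250 bases before to 50 bases after the annotated start (build GRCm38.p6), were on hand for 7 members, with 11 windows in all. Rbm3, Hsp90aa1 and Hspa8 had no entry. The heat shock element was searched as GAANNTTC and TTCNNGAA, which read the same on both strands, and 15.1% of 32851 mouse promoter windows held at least 1 match and 1.96% at least 2. The mild cold response element, described in the Cirbp promoter, was searched as TCCCCGCC on both strands, and 5.38% of the windows held it. Capitals mark the matched letters, and each sequence runs 5′ to 3′ on the strand of its gene.
Hspa1a heat shock element, chr17:34972238-34972275, minus strand: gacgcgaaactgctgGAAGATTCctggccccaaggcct
Hspa1b heat shock element, chr17:34959320-34959357, minus strand: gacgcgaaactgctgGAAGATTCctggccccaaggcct
Hsph1 heat shock element upstream of the start, chr5:149636347-149636384, minus strand: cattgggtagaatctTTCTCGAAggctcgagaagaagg
Hsph1 overlapping heat shock elements after the start, chr5:149636273-149636315, minus strand: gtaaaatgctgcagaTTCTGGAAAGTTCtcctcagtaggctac
Hspd1 overlapping heat shock elements, chr1:55088044-55088091, minus strand: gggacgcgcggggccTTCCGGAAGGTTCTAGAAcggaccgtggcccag
Hspe1, the same region read on the plus strand: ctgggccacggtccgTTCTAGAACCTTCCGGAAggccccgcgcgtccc
Cirbp mild cold response element, chr10:80167589-80167614, plus strand: ctgTCCCCGCCtcctagtcgctagcg
Hspa1a mild cold response element, chr17:34972271-34972308, minus strand: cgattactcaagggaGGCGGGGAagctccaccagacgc

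The Hspa1a and Hspa1b windows held 1 heat shock element each, 104 bases before the start, and the 38 bases shown were identical. Hspd1 and Hspe1 lie head to head on chromosome 1 and share 3 overlapping elements, which appear in the window of both genes. Hsph1 held 3 elements. The Cirbp windows held none, and the mild cold response element lay 247 bases before 1 of its 2 annotated starts. Hspa1a and Hspa1b held that element too, at 137 bases before the start, and Dnajb1 held it 35 bases after a start and no heat shock element. A match is a description of letters and not a shown binding site.

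In the build of the count table, mm9, Cirbp lies on chromosome 10 (79628730 to 79635531) and Rbm3 on chromosome X (7716101 to 7723006). Hspa1a (35106144 to 35109069) and Hspa1b (35093381 to 35096183) are neighbours on chromosome 17. Hspd1 (55134679 to 55145087) and Hspe1 (55144976 to 55148151) overlap at their annotated 5′ ends on chromosome 1, and the counting options given in the study's methods name no strand setting, while the alignment of the untreated pools was run as strand-specific, so reads of the pair may not be fully told apart there. Hsph1 is on chromosome 5, Dnajb1 on 8, Hspa8 on 9 and Hsp90aa1 on 12. The coding sequences of Hspa1a and Hspa1b were 99.43% identical, and 68.14% of the 100-base runs of Hspa1a occurred unchanged in Hspa1b, so their counts were also added and tested as 1 gene. Hspa8, Hspe1 and Hspd1 have processed copies elsewhere in the genome that could share reads with them, and their counts are estimates to that extent.

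Libraries held 4064477 to 6794904 counts in the untreated pools and 9931356 to 19035957 at 150 bp. Levels are given as FPKM, counts per kilobase of effective transcript length scaled to the library total, divided by a scaling factor per library (trimmed mean of M-values, TMM) so that a few very abundant genes do not depress the rest. That mattered for the untreated low-flow pools, where Actb alone took 10.6% of counts in pool a, 10.1% in pool b and 3.74% in pool c, against 0.516% to 1.5% in the high-flow and sham pools. Their factors were 0.544, 0.532 and 1.08, against 1.07 to 1.23 in the others, and dividing by library totals alone moved the median gene from −0.07 to −0.69 log2 in low against high flow, and the genes called from 2652 higher and 2543 lower to 1044 higher and 3084 lower. Against sham the median went from −0.04 to −0.71 and the calls from 2304 higher and 2195 lower to 642 higher and 2716 lower. Rbfox2 itself was 3.65 ± 1.45 FPKM in low-flow controls at 7 d and 0.593 ± 0.431 in the EC-KO (SD, n = 3 each), with no overlap. All 11 endothelial markers had counts in every library. The 7 d low-flow libraries numbered 1, in both genotypes, came from an earlier sequencing run than the other 7 d libraries, and the control one stood apart in several of the genes below. 7 d results are therefore also given without both. These libraries were left out after their values of these genes had been seen, so values and calls without them are descriptions and support nothing. In bulk RNA, fewer cells of a type and less RNA per cell cannot be told apart.

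In the untreated arteries, low flow for 48 hr went with less Cirbp and more Rbm3, so the pair of cold-inducible genes moved apart, and with more of most chaperone genes but less Hspa1a. Of the 9 members that could be tested in low against high flow, 6 were higher and 2 lower, 8 in all, where 46.2% of all genes tested were called (23.6% higher, 22.6% lower). Called means an adjusted p under 0.05 in edgeR's quasi-likelihood test, adjusted over all genes tested. Against sham the same 6 were higher and the same 2 lower, where 40.3% of genes were called (20.6% higher, 19.7% lower). In high flow against sham none of the 9 was called, as none of 11030 genes was, and none had an unadjusted p under 0.05, which 868 genes had. Cirbp was the 1 member whose high-flow pools all lay above the sham pools, where 7.38% of genes tested lay above and 5.46% below (12.8% in all).

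Cirbp was 22.1, 26.3 and 39.1 FPKM in the low-flow pools a, b and c, and 103, 62.6 and 61.9 in the high-flow pools d, e and f. Sham pools g, h and i had 57.8, 56.1 and 59.9. All 3 low-flow pools lay below all 6 others, with a log2 fold change of −1.37 (SE 0.27, adjusted p = 0.00203) against high flow and −1.02 (SE 0.22, adjusted p = 0.0088) against sham.

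Rbm3 was 1173, 1168 and 529.8 FPKM at low flow, 329.7, 271 and 245 at high flow and 259, 215 and 443 in sham. Low-flow pools again lay beyond all others, here above them, by 1.75 (SE 0.36, adjusted p = 0.00253) on the log2 scale against high flow and 1.61 (SE 0.41, adjusted p = 0.0155) against sham. The call against sham was lost without low-flow pool a (adjusted p = 0.0562) or b (0.0566), or sham pool g (0.0738) or h (0.0606).

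**Figure D1:**
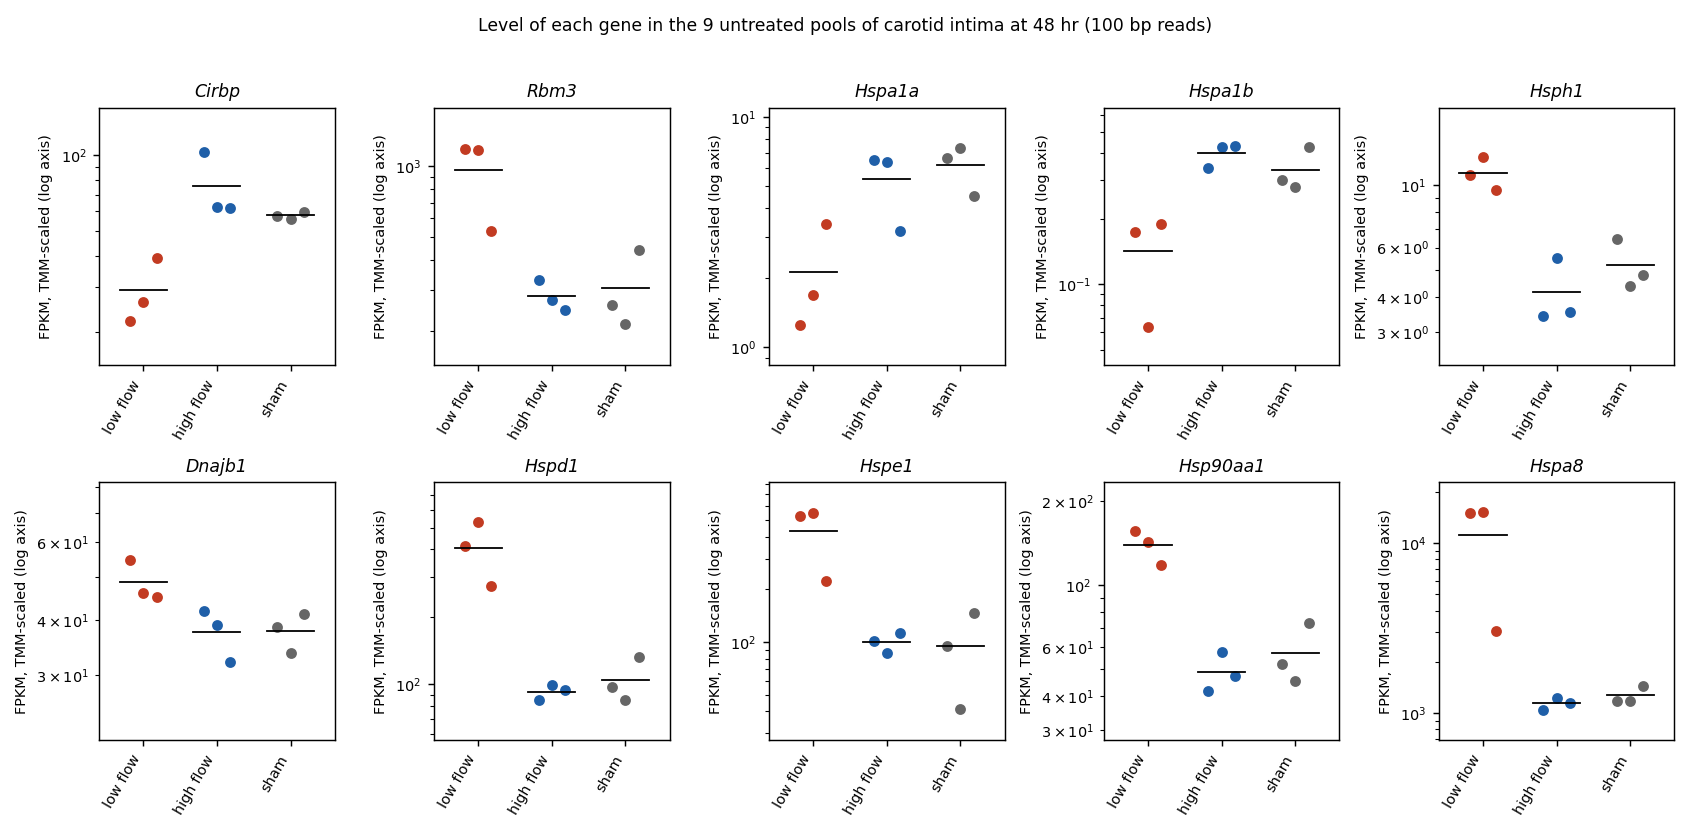
Level of each of the 10 genes in the 9 untreated pools at 48 hr, as TMM-scaled FPKM on a log axis, with 1 point per pool and a line at the group mean. The low-flow points of Cirbp lie below all others (22.1 to 39.1 against 56.1 to 103). Those of Rbm3, Hsph1, Hspd1, Hspe1, Hsp90aa1 and Hspa8 lie above all others, as do those of Dnajb1 by a small margin.

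The chaperone with the largest rise was Hspa8, which encodes HSC70, the HSP70 made in unstressed cells. It was 15066 and 15133 FPKM in low-flow pools a and b, 3033 in pool c, 1038 to 1225 at high flow and 1179 to 1434 in sham. Pools a and b stood well above pool c. As a share of counts, before the TMM factors, Hspa8 was 1.61%, 1.58% and 0.64% in pools a, b and c, and it moved with Actb, at 10.6%, 10.1% and 3.74%. What set pools a and b apart was not tested. The log2 fold change against high flow was 3.28 with an SE of 0.78 (adjusted p = 0.00615), and against sham 3.10 (SE 0.87, adjusted p = 0.023). The first call was lost without high-flow pool d (adjusted p = 0.058) or e (0.0511). The second was lost without low-flow pool a (0.0616) or b (0.0668) and without sham pool g (0.118), h (0.11) or i (0.0718).

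The mitochondrial partners Hspd1 (HSP60) and Hspe1 (HSP10) rose together. Hspd1 was 414, 529 and 273.5 FPKM at low flow, 85.2, 99.0 and 94.7 at high flow and 97.1, 84.8 and 132.5 in sham, a log2 fold change of 2.12 (SE 0.31, adjusted p = 0.000296) against high flow. Hspe1 was 523, 545 and 222 at low flow, 101.4, 86.5 and 112 at high flow and 95.1, 41.2 and 146 in sham, with 2.10 (SE 0.32, adjusted p = 0.000436). In both genes low-flow pool c had the smallest value of its group and still exceeded every high-flow and sham pool.

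Hsp90aa1, the inducible HSP90, was 156, 142.5 and 118.5 FPKM at low flow, 41.6, 57.3 and 47.1 at high flow and 52.2, 45.1 and 73.0 in sham. Its log2 fold change was 1.5 (SE 0.23, adjusted p = 0.000424) against high flow and 1.26 (SE 0.24, adjusted p = 0.00575) against sham. Hsph1, the HSP110 exchange factor, was much less abundant, at 10.9, 12.6 and 9.63 FPKM at low flow, 3.42, 5.52 and 3.54 at high flow and 6.46, 4.37 and 4.80 in sham. It rose by 1.38 (SE 0.23, adjusted p = 0.000783) and 1.04 (SE 0.20, adjusted p = 0.00614) on the log2 scale. With library totals in place of TMM neither gene was called in either comparison (Hsp90aa1 0.82 and 0.53 log2, adjusted p = 0.0577 and 0.278; Hsph1 0.71 and 0.33, adjusted p = 0.245 and 0.624), and Rbm3 was not called against sham (0.77, adjusted p = 0.0829).

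The inducible HSP70 gene Hspa1a went the other way. It was 1.25, 1.69 and 3.42 FPKM at low flow, 6.51, 6.4 and 3.20 at high flow and 6.66, 7.30 and 4.54 in sham, so low-flow pool c overlapped high-flow pool f. The log2 fold change was −1.25 (SE 0.40, adjusted p = 0.0246) against high flow and −1.48 (SE 0.37, adjusted p = 0.0153) against sham. Hspa1b had 0.40 to 7.92 estimated counts per pool and was too low to test. Added to Hspa1a it gave −1.27 (SE 0.38, adjusted p = 0.018) against high flow. The Hspa1a call against high flow was lost without low-flow pool a (adjusted p = 0.0882) or b (0.0814) or high-flow pool d (0.0759) or e (0.0791), and that against sham without pool a (0.0506), b (0.0572) or g (0.0501).

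Dnajb1, the HSP40 that works with HSP70 in the stress response, was 54.7, 46.2 and 45.2 FPKM at low flow, 42.0, 38.9 and 32.1 at high flow and 38.6, 33.7 and 41.3 in sham. The low-flow pools lay above the rest by a small margin and the gene was not called (log2 fold change 0.36, SE 0.18, adjusted p = 0.128 against high flow), and with library totals in place of TMM the sign turned to −0.29.

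By levels alone, 7 of the 10 members lay above all high-flow pools at low flow and 2 below, where 27.9% and 30.1% of genes tested did so (58.0% in all). Against sham 7 lay above and 3 below, where 28.0% and 28.4% did (56.4% in all). Macrophage markers moved with the same contrast: 11 of 13 tested were higher at low flow, and the 14-gene sum was 0.217% to 0.333% of counts at low flow, 0.0073% to 0.0171% at high flow and 0.0215% to 0.0651% in sham. Proliferation markers, 10 of 10 higher, went from 0.00265% to 0.00603% at high flow to 0.0525% to 0.109% at low flow. Neutrophil markers were higher in 8 of 8 and the endothelial sum was lower, at 0.44% to 0.578% against 0.975% to 1.15%. Marker sums are shares of library totals, not divided by the TMM factors (0.544, 0.532 and 1.08 in low-flow pools a, b and c). Undivided, all sums in pools a and b read low beside the other pools, so the size of the endothelial fall there is overstated. Smooth muscle markers, 3 higher and 1 lower of 8 tested, summed to 0.234% to 0.433% at low flow against 0.0565% to 0.066% at high flow, and fat cell markers were lower in 8 of 8, at 0.0115% to 0.0254% against 0.065% to 0.374%. Fibroblast markers summed to 0.00739% to 0.044% at low flow against 0.0497% to 0.0949% at high flow. The part of these cells or of cell division in the results was not tested.

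The IgG and PBS liposome groups gave low against high flow again in other mice, with 2 libraries per group in 1 fit of the 7 treated groups. In each of the pairs 5 of the 10 members were called, all higher: Rbm3, Hspd1, Hspe1, Hsp90aa1 and Hspa8. Of all genes tested, 40.5% were called with IgG (22.8% higher, 17.7% lower) and 35.0% with PBS liposomes (19.6% higher, 15.5% lower). All low-flow treated libraries were sequenced in an earlier run than all high-flow treated ones, so flow and run cannot be told apart here. Macrophage markers were 0.226% to 0.246% of counts at low flow with IgG against 0.00894% to 0.0281% at high flow, and 0.135% to 0.224% against 0.0126% to 0.0224% with PBS. Smooth muscle markers were 0.44% to 0.476% against 0.0557% to 0.0812% with IgG and 0.304% to 0.591% against 0.0519% to 0.0945% with PBS. Proliferation markers were 0.0765% to 0.128% against 0.00353% to 0.00703% with IgG and 0.0152% to 0.118% against 0.000975% to 0.0453% with PBS. Neutrophil markers were 0.0144% to 0.0395% against 0.000431% to 0.00303% with IgG and 0.0128% to 0.0356% against 0.000816% to 0.000887% with PBS. The endothelial sum was 0.529% to 0.646% against 1.83% to 1.84% with IgG and 0.478% to 0.486% against 1.07% to 1.4% with PBS. Fibroblast markers were 0.0324% to 0.0405% against 0.11% to 0.117% with IgG and 0.0183% to 0.0246% against 0.0579% to 0.0699% with PBS. The part of these cells was not tested.

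Hspe1 differed most. It was 129 and 162 FPKM in the low-flow IgG libraries and 15.3 and 15.6 in the high-flow ones, which is 3.23 on the log2 scale (SE 0.53, adjusted p = 0.00156). With PBS liposomes the low-flow libraries had 251 and 204 and the high-flow libraries 13.4 and 16, which is 4.0 on the log2 scale (SE 0.54, adjusted p = 0.000633). Rbm3 was 405 and 429.8 with IgG at low flow against 174 and 147 at high flow (1.38, SE 0.26, adjusted p = 0.00302), and 554 and 566 with PBS against 181 and 247 (1.44, SE 0.26, adjusted p = 0.00258). These 2 genes kept their calls without any single library.

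Hspd1 was 181.5 and 255 FPKM with IgG at low flow against 53.9 and 65.4 (log2 fold change 1.87, SE 0.51, adjusted p = 0.0136), and 359 and 329.6 with PBS against 73.3 and 93.0 (2.10, SE 0.51, adjusted p = 0.00952). Hsp90aa1 was 171 and 195 against 61.2 and 86.4 with IgG (1.31, SE 0.40, adjusted p = 0.0225) and 254 and 279 against 81.0 and 90.3 with PBS (1.68, SE 0.40, adjusted p = 0.00861). Hspa8 was 1341 and 2127 against 476 and 720.4 with IgG (1.53, SE 0.37, adjusted p = 0.00876) and 1866 and 1725 against 674 and 878 with PBS (1.26, SE 0.37, adjusted p = 0.0226). In all of these the groups did not overlap. Counted over the 10, 6 members lay above with IgG and none below, where 40.1% and 34.0% of genes tested did (74.1% together), and 6 lay above and 3 below with PBS, where 38.5% and 36.8% did (75.3% together). With IgG, Hspd1 lost its call without low-flow library 2 (adjusted p = 0.0845), high-flow library 1 (0.086) or high-flow library 2 (0.0539), and Hsp90aa1 (0.104 and 0.139) and Hspa8 (0.0777 and 0.0736) lost theirs without low-flow library 2 or high-flow library 1. With PBS, Hspd1 (0.0871) and Hsp90aa1 (0.0749) lost theirs without high-flow library 1, and Hspa8 lost it without any single library (0.0522 to 0.158).

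Cirbp overlapped between flows with IgG, at 48.7 and 27.2 FPKM against 69.5 and 35.9 (log2 fold change −0.47, SE 0.52, adjusted p = 0.482). With PBS it was 46.0 and 33.7 against 54.6 and 46.9 (−0.31, SE 0.52, adjusted p = 0.672). Hspa1a overlapped with IgG (31.4 and 49.9 against 34.0 and 53.8) and was lower at low flow with PBS, 25.4 and 15.7 against 46.2 and 44.0, which did not pass (−1.09, SE 0.43, adjusted p = 0.0675). Hspa1b was 22.1 and 39.4 against 23.7 and 32.0 with IgG and 19.8 and 18.7 against 29.9 and 31.8 with PBS. Hsph1 was 22.3 and 46.3 against 8.95 and 22.1 with IgG (1.14, SE 0.54, adjusted p = 0.108) and 33.0 and 32.4 against 16.7 and 19.9 with PBS (0.88, SE 0.53, adjusted p = 0.216). Dnajb1 ranged from 29.8 to 82.1 over these 8 libraries with overlap in both pairs.

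Platelet depletion at low flow went with more Cirbp and less Rbm3, Hspe1, Hsp90aa1 and Hspa8. Against IgG, 5 of the 10 members were called, 1 higher and 4 lower, where 16.5% of genes were called (6.05% higher, 10.5% lower). This comparison shares its IgG libraries with the flow comparison above, so the 2 are not independent: a value of IgG that is high by chance moves both. None of the 5 calls survived the loss of any 1 of the 4 libraries, when 0.00719% to 0.638% of genes were called.

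Cirbp was 122 and 151 FPKM after anti-GPIba against 48.7 and 27.2 with IgG, the highest mean of the 11 groups read at 150 bp, with a log2 fold change of 1.82 (SE 0.53, adjusted p = 0.0418). Rbm3 was 205 and 192 against 405 and 429.8 (−1.10, SE 0.26, adjusted p = 0.0285). Both genes were apart from IgG in every library. Hspe1 was 23.7 and 38.5 against 129 and 162 (−2.25, SE 0.50, adjusted p = 0.0252). Hsp90aa1 was 57.1 and 72.8 against 171 and 195 (−1.52, SE 0.40, adjusted p = 0.0336). Hspa8 was 722 and 789.8 against 1341 and 2127 (−1.22, SE 0.37, adjusted p = 0.0457). Without 1 library at a time the log2 fold changes ran from 1.46 to 2.31 for Cirbp (adjusted p = 0.0664 to 0.275), −1.15 to −1.05 for Rbm3 (0.0605 to 0.178), −2.65 to −1.94 for Hspe1 (0.0515 to 0.166), −1.71 to −1.36 for Hsp90aa1 (0.0659 to 0.207) and −1.51 to −0.85 for Hspa8 (0.0581 to 0.309).

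Of the members that did not pass after anti-GPIba, Hspd1 was 70.6 and 77.5 FPKM against 181.5 and 255 (log2 fold change −1.59, SE 0.50, adjusted p = 0.0509). Hsph1 was 11.6 and 12.4 against 22.3 and 46.3 (−1.54, SE 0.54, adjusted p = 0.0672). Dnajb1 was 33.8 and 34.3 against 47.8 and 82.1 (−0.96, SE 0.35, adjusted p = 0.0723). Hspa1a was 97.3 and 78.3 against 31.4 and 49.9 (1.08, SE 0.42, adjusted p = 0.0921), and Hspa1b 61.3 and 43.5 against 22.1 and 39.4 (0.74, SE 0.30, adjusted p = 0.103). None of the 10 members overlapped between the groups, 3 lying above and 7 below, where 35.8% and 38.3% of genes tested did (74.2% in all). DESeq2 and a fit of the 2 groups alone each called 9 members, where 22.1% and 34.5% of genes were called. Macrophage markers were 0.0246% to 0.0338% of counts after anti-GPIba against 0.226% to 0.246% with IgG, and proliferation markers 0.00172% to 0.00237% against 0.0765% to 0.128%. Smooth muscle markers were 0.0751% to 0.106% against 0.44% to 0.476%, and neutrophil markers 0.00122% to 0.002% against 0.0144% to 0.0395%. The endothelial sum was 1.13% to 1.15% against 0.529% to 0.646%. Fibroblast markers were 0.0637% to 0.111% against 0.0324% to 0.0405%, and fat cell markers 0.0445% to 0.117% against 0.0138% to 0.0356%. Platelet markers were 0.00361% to 0.0044% against 0.00819% to 0.00911%. Their part in the change was not tested.

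**Figure D2:**
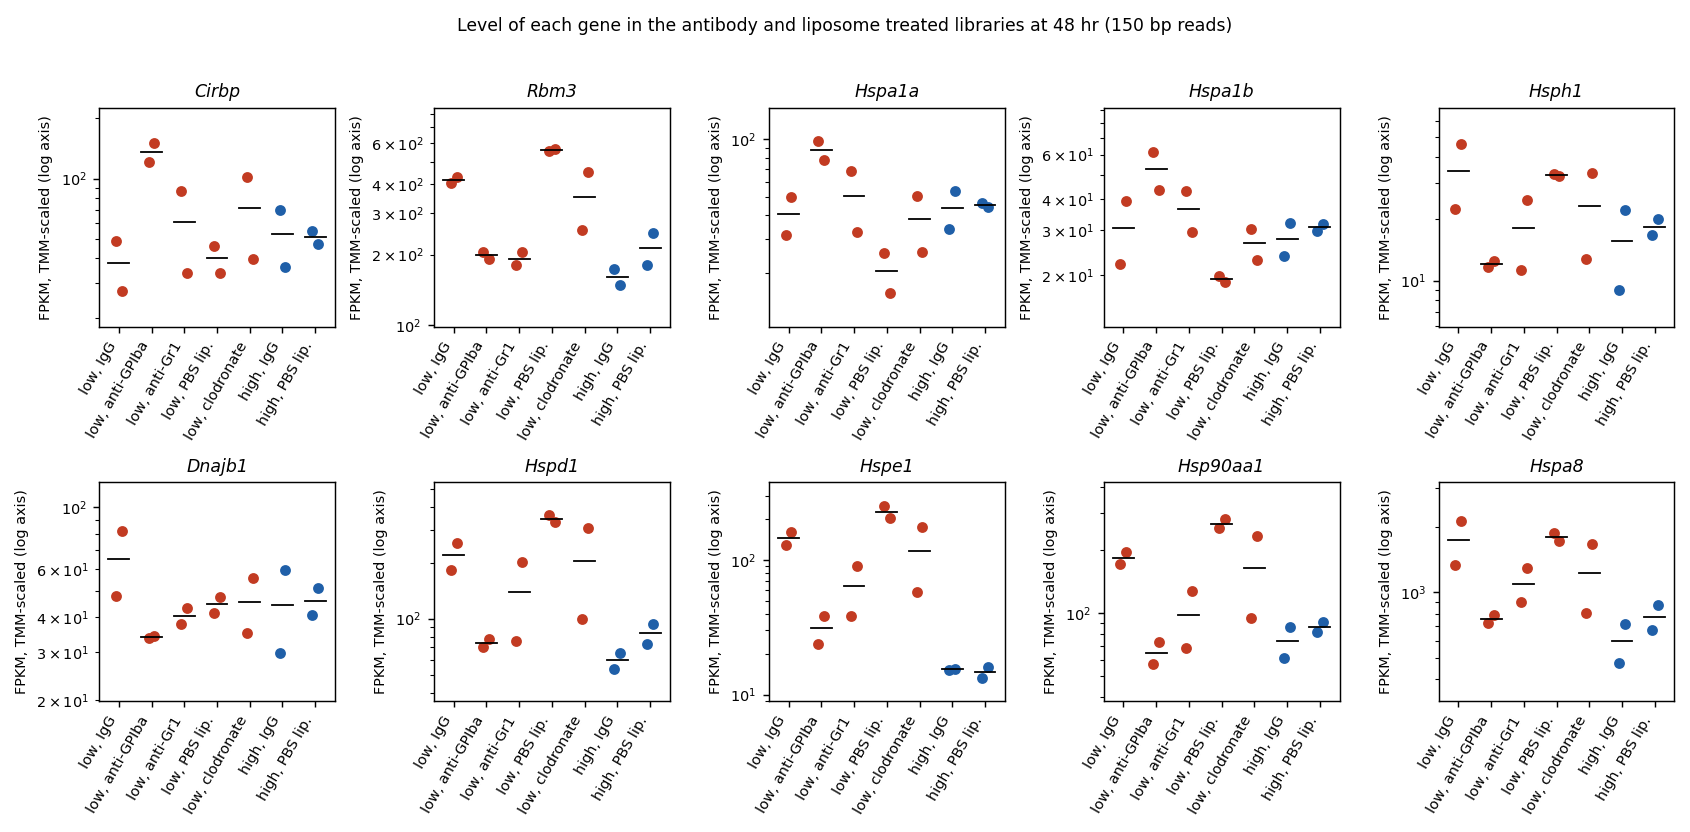
Level of each of the 10 genes in the 14 antibody and liposome treated libraries at 48 hr, as TMM-scaled FPKM on a log axis, with 1 point per library and a line at the mean of the 2. After anti-GPIba, Cirbp lies highest (122 and 151) while Rbm3, Hspd1, Hsp90aa1 and Hspa8 lie near the high-flow groups, and the 2 anti-Gr1 and 2 clodronate libraries lie far apart from each other in several genes.

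No member was called after anti-Gr1 or after clodronate, where 0% and 0.119% of genes were called. After anti-Gr1 no member lay wholly above IgG and 5 lay below, where 22.5% and 28.6% of genes did (51.0% in all), and after clodronate 2 lay above and 5 below, where 26.3% and 24.2% did (50.4% in all). With anti-Gr1, 3 members had an unadjusted p under 0.05, as did 2432 of the 13401 genes, and with clodronate 1 member did, as did 2002 genes. DESeq2 called 1 member, Rbm3, after anti-Gr1 (log2 fold change −1.11, adjusted p = 0.0181), where it called 1.18% of genes. Rbm3 was 179.8 and 205 FPKM with anti-Gr1 against 405 and 429.8 with IgG, and in edgeR the change was −1.13 (SE 0.26, adjusted p = 0.243). With clodronate it was 254 and 453 against 554 and 566 with PBS liposomes (−0.70, SE 0.26, adjusted p = 0.276).

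The 2 libraries of each of these groups disagreed, and the same members separated them. In anti-Gr1 library 1 Cirbp was 87.1 FPKM and in library 2 it was 33.7, and in the clodronate libraries it was 102 and 39.7. Hspd1 was 75.4 and 201 after anti-Gr1 and 99.7 and 306 after clodronate. Hsp90aa1 was 67.9 and 128 after anti-Gr1 and 94.8 and 233 after clodronate, and Hspe1 was 38.2 and 89.9 and 57.8 and 174. In all of these library 1 lay on the side of the anti-GPIba libraries. Without clodronate library 2, 3 members were called lower than with PBS liposomes, where 6.69% of genes were called, and without library 1 no gene was. The clodronate group is then 1 library, assumed to vary like the other groups of the fit. The 3 were Rbm3 (−1.15, adjusted p = 0.0359), Hspe1 (−1.98, adjusted p = 0.0429) and Hsp90aa1 (−1.5, adjusted p = 0.0453). Macrophage markers were alike in the pair, at 0.0254% and 0.0242% of counts after clodronate and 0.133% and 0.134% after anti-Gr1. Proliferation markers were 0.00389% in clodronate library 1 and 0.117% in library 2, and 0.0102% and 0.00516% after anti-Gr1. Smooth muscle markers were 0.184% and 0.627% in the anti-Gr1 pair and 0.248% and 0.273% in the clodronate pair, and the endothelial sum was 0.873% and 0.991%, and 1.04% and 0.678%. What set the libraries apart was not tested.

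The single 100 bp libraries gave values only. Cirbp was 32.4 FPKM with PBS liposomes and 44.2 with clodronate, Rbm3 628 and 578, Hspd1 338 and 276, Hsp90aa1 202 and 173, and Hspa8 1856 and 1651.

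At 7 d no member was called between flows with all libraries in the main edgeR fit. DESeq2, a replicate block, no filter on low counts and library totals in place of TMM each called some. In the main fit none of the 10 was called in low against high flow, in controls (2.40% of genes called) or in the EC-KO (1.09%). In controls 3 members had an unadjusted p under 0.05, as did 3332 of the 13352 genes, and in the EC-KO 1 did, as did 2099 genes. Rbm3 and Hspe1 lay above all high-flow libraries in controls and Hspa1a below, where 19.1% and 20.6% of genes tested did (39.8% in all). DESeq2 called 2 members in controls, Rbm3 (1.10, adjusted p = 0.000773) and Hspd1 (1.57, adjusted p = 0.0125), where it called 13.9% of genes, and Rbm3 in the EC-KO (0.89, adjusted p = 0.016), where it called 6.03%. Without the libraries numbered 1, a choice made from these values, 7 members were called in controls, where 29.2% of genes were, and 5 in the EC-KO, where 8.36% were. With all libraries in the fit and the column number as a replicate block, 7 members were called in controls, where 2940 of 13352 genes were. In the EC-KO 2 members were called, where 9.86% of genes were. No high-flow library is numbered 1, so the block takes up the level that the low-flow libraries numbered 1 share. Those libraries then add little to the comparison of flows. The block fit is therefore not independent of leaving them out, and its calls are not separate support for the calls without them. The block called Cirbp (−1.81, adjusted p = 0.0395) in controls and Rbm3 in both genotypes (1.18, adjusted p = 0.00676; 0.99, adjusted p = 0.023 in the EC-KO). High flow is the other artery of ligated mice, but nothing says that a number marks the same mice.

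Control library 1 at low flow had 86.3 FPKM of Cirbp, where libraries 4 and 5 had 9.76 and 9.66 and the high-flow controls 53.5 and 41.0. Hsp90aa1 was 53.5 in library 1, 247 and 319 in libraries 4 and 5 and 89.3 and 80.1 at high flow. Hspd1 was 76.2, then 269 and 305, and 78.3 and 71.7 at high flow. Hspa8 was 672, then 1411 and 1984, and 757 and 742.5 at high flow. Hsph1 was 9.93, then 38.2 and 51.3, and 16.5 and 16.4 at high flow. Library 1 thus sat with or beyond the high-flow libraries in all 5 genes, and the spread within the group reached 8.93-fold for Cirbp. Its proliferation marker sum was 0.0132% of counts against 0.158% and 0.195%, and its endothelial sum 1.15% against 0.548% and 0.581%. Their part was not tested.

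Without both libraries numbered 1, Cirbp in controls was lower at low flow by 2.28 on the log2 scale (adjusted p = 0.000636), Hspd1 was higher by 1.93 (adjusted p = 0.000855), Hsp90aa1 by 1.74 (0.00084), Hsph1 by 1.44 (0.00303), Rbm3 by 1.24 (0.00298) and Hspa8 by 1.18 (0.0046), and Hspa1a was lower by 1.09 (0.0114). In low-flow control libraries 4 and 5 smooth muscle markers were 0.143% and 0.132% of counts against 0.0323% and 0.0417% at high flow, proliferation markers 0.158% and 0.195% against 0.0037% and 0.00378%, macrophage markers 0.173% and 0.0346% against 0.015% and 0.00646%, and the endothelial sum 0.548% and 0.581% against 1.59% and 1.66%. The part of these cells was not tested. With all libraries the Cirbp change was −0.41 (SE 0.80, adjusted p = 0.787) and that of Rbm3 1.06 (SE 0.25, adjusted p = 0.0521). Rbm3 was 173, 279.7 and 248.7 FPKM at low flow in controls and 109.8 and 114 at high flow, so here even library 1 lay above. Hspe1 was 36.7, 66.8 and 56.0 against 33.7 and 30.1 (0.74, SE 0.35, adjusted p = 0.219), a smaller difference than at 48 hr, though the time points were not tested against each other. Hspa1a was 55.9, 27.3 and 32.2 against 65.8 and 61.0, Hspa1b 47.5, 22.3 and 45.9 against 46.9 and 38.8, and Dnajb1 38.4, 47.7 and 44.7 against 43.0 and 30.8.

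In the EC-KO at 7 d, Rbm3 was 174, 189 and 223 FPKM at low flow against 92.8 and 122 at high flow (log2 fold change 0.85, SE 0.24, adjusted p = 0.135), and 5 of the 10 members lay above all high-flow libraries, where 20.5% of genes tested did (43.8% in all, with those below). Hsp90aa1 was 62.8, 140.0 and 173 against 80.5 and 76.1 (0.67, SE 0.62, adjusted p = 0.64). Hspd1 was 79.9, 92.8 and 139 against 61.5 and 66.7 (0.69, SE 0.48, adjusted p = 0.519). Cirbp was 53.8, 34.0 and 31.5 against 52.0 and 53.5 (−0.41, SE 0.80, adjusted p = 0.848). Without the libraries numbered 1 the called members were Rbm3 (0.93, adjusted p = 0.0272), Hsp90aa1 (0.99, adjusted p = 0.0221), Hsph1 (0.95, adjusted p = 0.0408), Hspa8 (0.84, adjusted p = 0.0436) and Hspd1 (0.84, adjusted p = 0.0471). Over all EC-KO libraries macrophage markers were 0.108% to 0.19% at low flow against 0.00976% to 0.0116% at high flow, smooth muscle markers 0.112% to 0.171% against 0.0294% to 0.0345% and the endothelial sum 0.805% to 0.996% against 1.7% to 1.74%. Their part was not tested either.

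Deletion of Rbfox2 in endothelium was the question of the 7 d groups. No member was called between EC-KO and control at low flow, where none of 13352 genes was called in edgeR. Unadjusted p was under 0.05 in 4 members and 880 genes. The paper, by contrast, reports genes affected by the deletion in this comparison. Rbfox2 itself was not called in edgeR (log2 fold change −2.61, SE 0.58, adjusted p = 0.692), although its levels did not overlap. The fit thus missed the deletion itself, and its lack of calls does not show that Rbfox2 had no effect. DESeq2 called no member there either. None was called at high flow, where 0.00749% of genes were and no member had an unadjusted p under 0.05. The difference of the flow change between genotypes called no gene, and no member had an unadjusted p under 0.05, as 538 genes did.

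At low flow Hspa1b was 61.6, 72.3 and 55.5 FPKM in the EC-KO and 47.5, 22.3 and 45.9 in controls, without overlap (log2 fold change 0.71, SE 0.27, adjusted p = 0.692), and the sum with Hspa1a was 141, 153 and 106 against 103, 49.6 and 78.1 (0.79, SE 0.27, adjusted p = 0.692). Hspe1 was 30.4, 19.8 and 36.7 against 36.7, 66.8 and 56.0 (−0.88, SE 0.31, adjusted p = 0.692). These were 1 member above and 1 below without overlap, where 4.41% and 3.42% of genes were (7.83% in all). With all libraries Hspa1a (0.87, SE 0.29, adjusted p = 0.692) and Hspd1 (−1.06, SE 0.43, adjusted p = 0.692) overlapped, and so did Cirbp (0.16, SE 0.72, adjusted p = 0.961). Without both libraries numbered 1, left out because of such values, it was 34.0 and 31.5 in the EC-KO against 9.76 and 9.66 in controls, higher by 1.75 on the log2 scale (adjusted p = 0.0244), Hspa1a was higher by 1.14 (adjusted p = 0.049) and Hspd1 lower by 1.31 (adjusted p = 0.0354), 3 calls where 2.84% of genes were called. In libraries 4 and 5 the proliferation marker sum was 0.0226% and 0.059% of counts in the EC-KO against 0.158% and 0.195% in controls, the endothelial sum 0.944% and 0.805% against 0.548% and 0.581%, and the fibroblast sum 0.354% and 0.116% against 0.0512% and 0.0466%. The immediate early gene sum was 0.733% and 0.14% against 0.163% and 0.0952%. Their part in these calls was not tested. Without control library 1 alone 5 members were called, where 11.1% of genes were. Without both libraries the difference of the flow change was 1.59 for Cirbp (adjusted p = 0.143) and no gene was called.

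**Figure D3:**
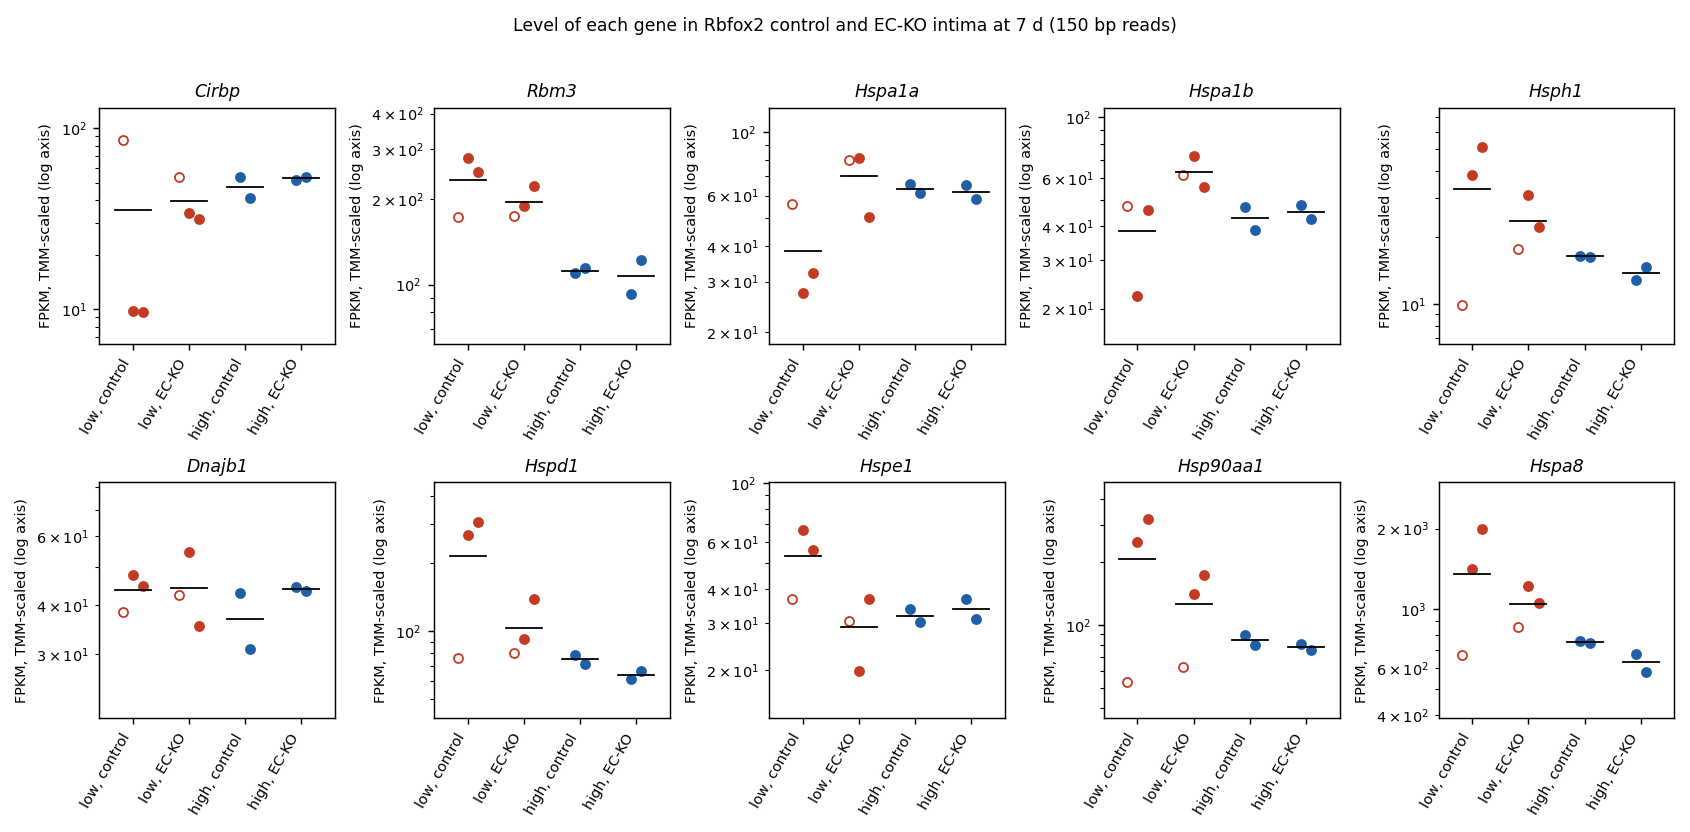
Level of each of the 10 genes in the 10 libraries at 7 d, as TMM-scaled FPKM on a log axis, with 1 point per library and a line at the group mean; open points are the low-flow libraries numbered 1. The open control point of Cirbp (86.3) lies far above the other low-flow controls (9.76 and 9.66), and the open points of Hspd1, Hsp90aa1 and Hspa8 lie near the high-flow libraries.

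**Figure D4:**
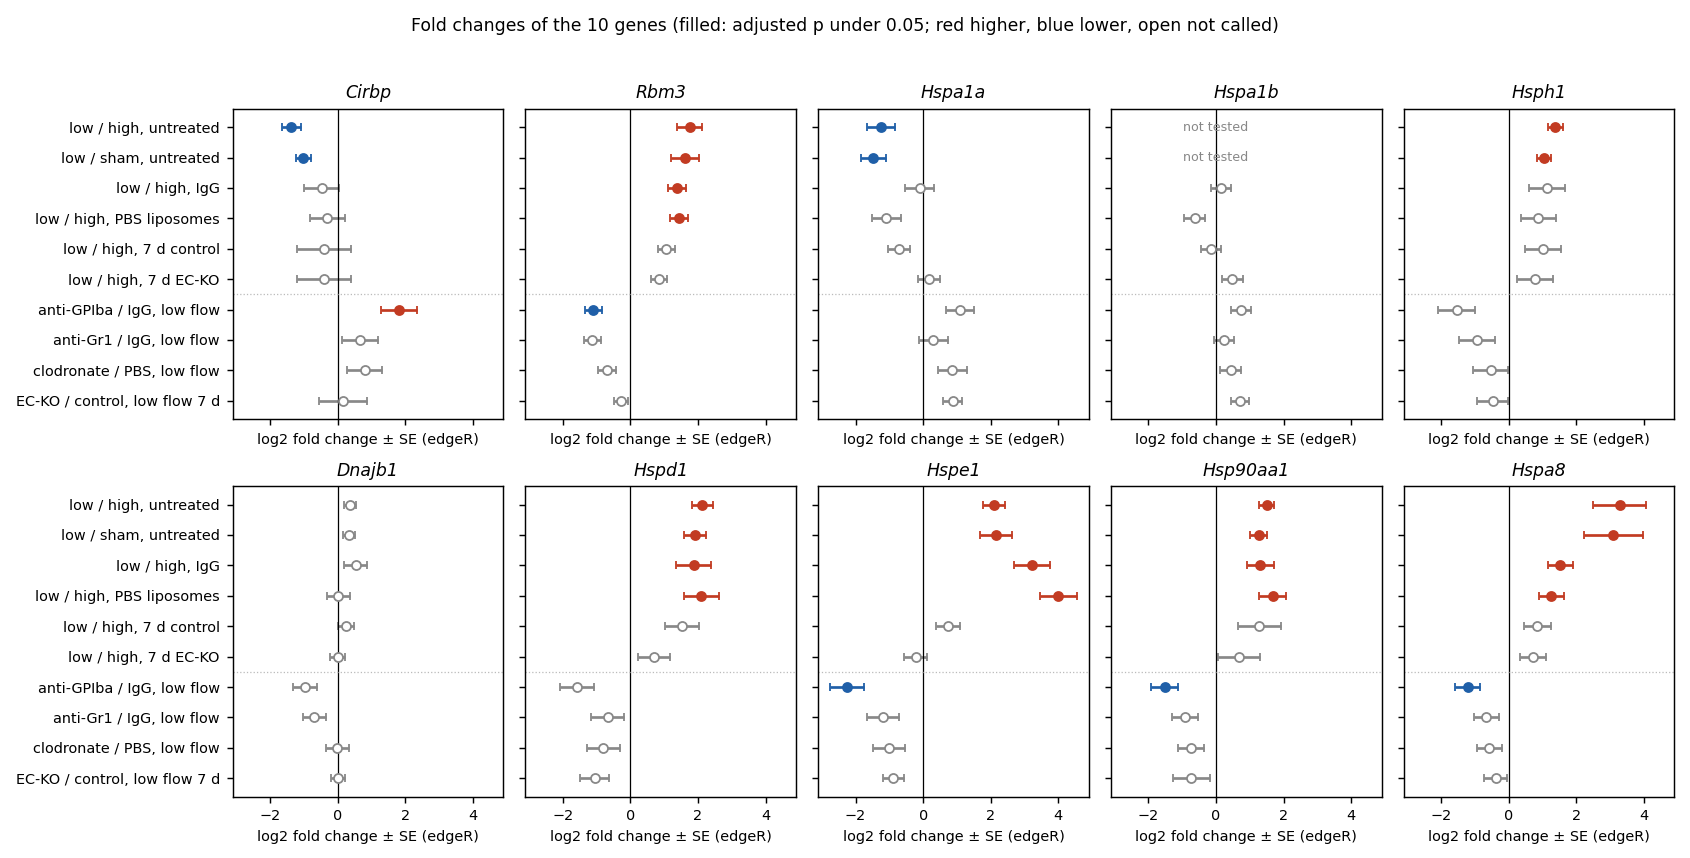
Log2 fold change of each of the 10 genes with its SE in 10 comparisons, from edgeR; filled points have an adjusted p under 0.05, red for higher and blue for lower, and the dotted line separates comparisons of flow from comparisons of treatment or genotype. Rbm3, Hspd1, Hspe1, Hsp90aa1 and Hspa8 are filled red in all 4 flow comparisons at 48 hr, and Dnajb1 is filled in none.

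Ordered by mean level over the 11 groups read at 150 bp, Cirbp went from 136 ± 20.5 FPKM with anti-GPIba (SD, n = 2) and 71.0 ± 44.2 with clodronate (n = 2) down to 37.9 ± 15.2 with IgG at low flow (n = 2) and 35.3 ± 44.2 in low-flow controls at 7 d (n = 3). The anti-GPIba group alone was apart from its neighbour in that order, and the other 9 neighbouring pairs overlapped. Rbm3 was highest with PBS liposomes at low flow, 559.8 ± 8.83 (n = 2), which was apart from IgG at low flow, 417 ± 17.7 (n = 2), and lowest at high flow at 7 d, 107.5 ± 20.7 in the EC-KO and 112 ± 3.28 in controls (n = 2 each). For Dnajb1 and Hsp90aa1 no neighbouring pair was apart. Dnajb1 group means ran from 34.0 to 65.0.

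Over the 24 carotid libraries read at 150 bp, log2 levels of Hspd1 and Hspa8 had a Pearson correlation of 0.94, Hspd1 and Hsp90aa1 0.94 and Hsph1 and Hsp90aa1 0.91. Cirbp was inverse to Hsph1 (−0.83) and Hsp90aa1 (−0.75) and less so to Rbm3 (−0.26). Hspa1a and Hspa1b had 0.86, and Hspa1a was inverse to Hspd1 (−0.77) and Rbm3 (−0.70). The libraries share groups and runs, so these are descriptions.

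Among 8326 genes with a mean of at least 5 FPKM, those whose level was most like Cirbp over all 35 carotid libraries were Nudt7, Fam158a, Gstm1, Cyp2d22 and Mapk1ip1, with Pearson correlations of 0.888 to 0.897. Those most like Rbm3 were Esd, Ctla2a, Hnrnpa1, Rpl5 and Exosc8 (0.942 to 0.953). Those most like Hsph1 were Dhx15, Txnrd1, Gspt1, Orc2 and Hspa4 (0.938 to 0.946), of which Hspa4 is another HSP110 gene. Those most like the sum of Hspa1a and Hspa1b were Tm7sf3, Nelf, Fam134a, Zdhhc1 and Sh3bp5l, at 0.98 to 0.983 over all libraries and 0.769 to 0.889 over the 24 read at 150 bp.

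The drop in that last set goes with the read set. In the 11 carotid libraries read at 100 bp, Hspa1a was 1.25 to 7.30 FPKM and Hspa1b 0.0635 to 0.707, and in the 24 read at 150 bp they were 15.7 to 97.3 and 18.7 to 72.3. When the reads of 12 of the 150 bp libraries had been cut to 100 bp by the authors, Hspa1a was 0.929 to 1.04 times and Hspa1b 0.959 to 1.08 times its value at full length, while the 2 sets of libraries do not overlap in either gene. The immediate early gene sum, a sign of handling or stress, was 0.0206% to 0.0712% of counts in the 100 bp carotid libraries and 0.0876% to 0.733% in the 150 bp ones. The study's methods name Tophat for the untreated pools and STAR for the 150 bp reads, while the submitters' processing notes name STAR alone. The part of the aligner, of the immediate early genes, of library preparation and of the mouse group was not tested.

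Beyond the members, 89 other genes of the same pathways were listed with the results known. In untreated low against high flow 29 of the 82 tested were higher and 10 lower, with a median log2 fold change of 0.36 where the median of all genes was −0.07, and where 23.6% of all genes tested were higher and 22.6% lower. With library totals in place of TMM these became 9 higher and 13 lower with a median of −0.28, where the median of all genes was −0.69. With IgG 38 of 86 were higher and 10 lower (median 0.49, all genes 0.07), where 22.8% and 17.7% of all genes were. With PBS liposomes 39 were higher and 7 lower (median 0.51, all genes 0.06), where 19.6% and 15.5% were. Leaving out any 1 library of these pairs leaves 1 in its group, and fewer listed genes were then called. The medians then ran from 0.33 to 0.69 with IgG and from 0.52 to 0.59 with PBS liposomes. After anti-GPIba 3 were higher and 17 lower (median −0.45, all genes −0.04), where 6.05% and 10.5% were. Without any 1 of the 4 libraries of that comparison none of the listed genes was called, so the anti-GPIba calls below hold only with all 4. The counts of each group of genes below stand beside the same shares. With all libraries no listed gene passed after anti-Gr1 or clodronate or between EC-KO and control. At low flow without control library 1, 2 listed genes were higher and 15 lower in the EC-KO, where 738 and 738 of 13251 genes were. Without both libraries numbered 1, 1 was higher and 4 lower, where 233 and 141 of 13159 genes were. Without clodronate library 2, which leaves 1 library in that group, the median of the listed genes was −0.5, against −0.28 with all libraries.

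The 8 subunits of the cytosolic chaperonin, which folds actin and tubulin, moved as a body. All 8 were higher at low flow in the untreated pools, with Tcp1 at 339 ± 90.9 FPKM against 93.5 ± 6.74 (SD, n = 3; log2 fold change 1.85, adjusted p = 0.000444) and Cct3 at 246 ± 65.2 against 70.1 ± 4.33 (1.80, adjusted p = 0.000262). With library totals 6 of the 8 were still called, all higher. All 8 were higher with IgG and with PBS liposomes. All 8 were lower after anti-GPIba, where Tcp1 was 87.2 ± 5.53 against 236 ± 46.3 (SD, n = 2) (−1.46, adjusted p = 0.0373). Not all 8 kept their call with PBS liposomes when high-flow library 1 was left out.

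Of the 10 listed genes of HSP90 and its co-chaperones, 6 were higher and none lower at low flow in the untreated pools. Ptges3, the p23 co-chaperone, rose by 2.28 (SE 0.47, adjusted p = 0.00261) and Stip1, which links HSP70 to HSP90, by 1.85 (SE 0.24, adjusted p = 0.000128). After anti-GPIba 5 were lower, led by Stip1 (−1.43, adjusted p = 0.0388) and Ppid (−1.42, adjusted p = 0.039). Of the 8 genes listed as HSP70 co-chaperones, 5 were higher at low flow, among them St13 at 0.88 (adjusted p = 0.00248). The 5 include Hspbap1 at 1.21 (adjusted p = 0.00185), which is named for its partner HSPB1, a small heat shock protein, and not for HSP70. With library totals 3 genes of the HSP90 group were called, all higher and among them Ptges3 (1.41) and Stip1 (1.12), and no HSP70 co-chaperone was. Other HSP40 genes were mixed, 1 higher (Dnaja1, 1.31, adjusted p = 0.0126) and 2 lower of 10. Of the mitochondrial chaperone and protease genes 3 of 12 were higher and none lower, a share near the 23.6% of all genes that were higher, led by Hspa9, the HSP70 of mitochondria, at 95.3 ± 10.9 FPKM against 42.3 ± 10.3 (SD, n = 3; log2 fold change 1.16, adjusted p = 0.00276, and 0.5 with library totals, adjusted p = 0.265).

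Some heat shock relatives fell. Of 5 small heat shock genes tested, 2 were lower and 1 higher, and of 7 other HSP70 and HSP110 genes 2 were lower and 3 higher, where 22.6% of all genes were lower and 23.6% higher. The small heat shock gene Cryab was 7.70 ± 4.73 FPKM at low flow against 102 ± 16.3 at high flow (SD, n = 3; log2 fold change −3.63, adjusted p = 1.42e-05), and Hspb1 fell by 1.2 on the log2 scale (adjusted p = 0.0159) while Hspb8 rose by 0.62 (adjusted p = 0.0373), which with library totals became −0.06. Hspa12b, an endothelial HSP70 relative, was 10.7 ± 1.43 against 25.2 ± 7.43 (−1.25, adjusted p = 0.00164). In the main fit with all libraries Hspa12b was also the only listed gene called at 7 d. In controls it was 26.5 ± 2.69 (n = 3) against 70.1 ± 1.47 (n = 2) (−1.40, adjusted p = 0.00817). In the EC-KO it was 24.7 ± 1.53 against 73.7 ± 5.66 (−1.58, adjusted p = 0.00548). Without both libraries numbered 1, a choice made from these data, 31 of 85 listed genes were higher and 9 lower in controls. Of all 13159 genes, 2019 were higher and 1821 lower. In the EC-KO 9 listed genes were higher and 2 lower, where 504 and 596 of all genes were. Of the 4 heat shock factor genes 2 could be tested, and neither was called in the untreated pools, with IgG or after anti-GPIba, while 1 was higher with PBS liposomes. Among other genes reported as cold responsive, 3 of the 8 tested were lower, where 22.6% of all genes were, led by the channel gene Trpv4 (−1.38, adjusted p = 0.000123) and the splicing kinase gene Clk4 (−0.93, adjusted p = 0.0123). Of 9 tested RNA-binding protein genes close to Cirbp and Rbm3, 2 were higher and none lower, also near that share, Rbm14 at 29.5 ± 7.73 FPKM against 8.66 ± 0.908 (1.75, adjusted p = 0.000114) and Rbm4 at 9.49 ± 1.56 against 5.71 ± 0.873 (0.72, adjusted p = 0.0193), and neither was called with library totals (1.03 and 0.04).

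In culture, with 1 library per condition, differences have no replicate check. In the aortic endothelial line Cirbp was 41.5 FPKM in untreated cells, 28.8 after plasma, 28.1 after platelets plus macrophages and 17.6 where all of these were given, a log2 ratio of −1.2 for the last, with a pseudocount of 1. It was the only member past 2-fold in any of the 3 conditions, where 6.11%, 5.02% and 14.0% of genes were. Hsph1 was 26.2 untreated and 43.9 with everything added (0.72), and Rbm3 stayed between 298 and 329. Endothelial markers made up 0.029% to 0.0365% of counts in the line, against 0.358% to 0.576% in the primary cells. Macrophage markers were 0.00538% in the untreated line, 0.00683% after plasma, 0.0402% after platelets plus macrophages and 0.0308% with everything added. Neutrophil markers were 2.05e-05% in the untreated line and 0.0074% with everything added. The part of RNA from added cells was not tested. In primary cells no member passed 2-fold between EC-KO and control, where 3.31% of genes did, with Cirbp at 20.9 and 16.1, Rbm3 at 143 and 166 and Hsph1 at 55.7 and 41.0. Rbfox2 was 0.675 FPKM in the EC-KO cells and 9.33 in the control cells.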

How the data were processed

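The authors deposited 1 table of RSEM expected counts per gene, which they made from Illumina reads with RSEM 1.2.15 on alignments to mm9 (STAR 2.5.1b is named in the submitters' processing notes, and Tophat in the methods for the untreated pools). Of its 204 value columns, 140 were not used here. RPKM deposited by the authors served only as an alternative for the cultured cells. The expected counts were rounded; 5.2% to 19.32% of genes per library had counts that were not whole. The entry with no gene name (0% to 0.117% of counts) was left out. Library totals were 4064477 to 6794904 in the untreated pools, 4989843 to 5901210 in the single 100 bp libraries and 9931356 to 19035957 at 150 bp.

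Tests were edgeR 4.0.16 quasi-likelihood fits with filterByExpr and TMM, adjusted by Benjamini-Hochberg over all genes tested and called at an adjusted p under 0.05: a fit of each pair of untreated groups, 1 fit of the 7 treated groups and 1 of the 4 groups at 7 d. DESeq2 1.42.0 was an alternative. The SE is the fold change over the root of F. Levels were counts over effective length and library total, divided by TMM factors computed over the 100 bp carotid libraries and over the 150 bp ones separately; cultured cells have no factor. The test was checked on counts simulated with the same spread for all genes and no outlying library, so the check does not cover the spread seen here. Where nothing says that libraries came from separate mice, p-values measure the spread between these libraries.

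Members and gene lists were chosen with earlier results of these data known, and the result of a further gene on these lists is not reported here. All members are named; from each list, the 2 called genes that changed most each way; and the 5 genes most alike by Pearson correlation of log2(FPKM + 1). At 7 d the column numbers 1, 4 and 5 recur in control and EC-KO at low flow. Same-numbered libraries deviated together (correlations of 0.485, 0.162 and 0.252). They were taken as pairs by a rule of over 0.1 in each of 3 pairs. Both libraries numbered 1 share an earlier run, so these correlations cannot show pairing by themselves. Clodronate against PBS liposomes (0.39), PBS liposomes between flows (0.347), genotypes at high flow (0.174) and 7 d controls between flows (0.148) also passed 0.1, and the other comparisons did not. With the block the count of members called between genotypes at low flow stayed 0.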

Additional observations from a re-analysis of the deposited data

How the results depend on the processing

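Over 165 alternative counts of members called, 133 lay within 1.5 times the main count, and of 1572 alternatives for single members 1375 kept direction and side of the threshold and none reversed a call. In low flow against sham, library totals in place of TMM gave 5 members called, and leaving out single pools gave 5 to 8; against high flow they gave 6 to 8. After anti-GPIba the count of 5 became 9 with DESeq2, 9 with the 2 groups fitted alone, 2 with the 5 low-flow groups alone, 3 with those groups cut to 100 bp and 0 without any single library. DESeq2 gave 1 after anti-Gr1, 1 in the EC-KO and 2 in the controls between flows at 7 d, where no filter gave 1 and library totals gave 1. Leaving out single libraries gave 0 to 3 after clodronate, 2 to 6 with IgG, 2 to 4 with PBS liposomes, 0 to 7 in controls at 7 d and 0 to 5 for EC-KO against control at low flow, and with PBS the 2 groups alone gave 8. Without both libraries numbered 1 the counts were 7 in controls, 5 in the EC-KO and 3 for EC-KO against control. At 1.5-fold, 2 members passed with plasma and 2 with everything added. The added settings (library totals, both libraries numbered 1, low-flow groups alone, cut reads) were chosen after seeing the data. The cause of these changes was not tested, other than fewer libraries.

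With the replicate block, 8 members were called after anti-GPIba, 6 with IgG and 5 with PBS. Between flows at 7 d, 7 were called in controls and 2 in the EC-KO, and the count stayed 0 elsewhere. These counts between flows at 7 d are not independent of those without the low-flow libraries of the earlier run, whose number is absent at high flow. In every comparison the libraries are known to share only a number. No paired analysis was possible because the columns of the untreated pools carry letters and no shared numbers. The second sequencing run of the untreated pools was planned as an alternative and was not run, since those columns were not used here. Hspa1b was under the filter on low counts in the untreated pools, where its level was low at a depth that let Hspa1a be tested.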
